A study of Mus musculus with 20 samples.

Results

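The genes described here carry the symbols of the proteins of the cytosolic ribosome, and were followed in mouse preimplantation embryos. They were taken as every gene of the count table whose symbol has the form Rpl or Rps with a number and an optional a, x, l, al or l1 ending, together with Rplp0, Rplp1, Rplp2 and Rpsa. The rule found 85 of 25208 genes, and 84 of them were among the 16603 genes that passed the low-count filter and were tested. Rpl26 was not tested, since it had between 0 and 7 counts in a library. The mouse genes Rps3a1, Fau and Rack1, which also encode parts of the ribosome, are among those outside the rule. The tables name genes by symbol only. Whether each related gene that the rule took in, such as Rpl7l1, encodes a part of the ribosome was not checked.

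Messenger RNA was sequenced by Smart-seq2 from 20 libraries in 10 groups of 2. All were wild-type embryos cultured from the zygote in KSOM medium. Late 8-cell embryos had P300 siRNA with I1394G, P300 siRNA with NaCr, P300 siRNA alone, or the control treatment. Early 8-cell, 4-cell and late 2-cell embryos had P300 siRNA or the control treatment. P300 is the histone acetyltransferase encoded by Ep300. The labels do not spell out I1394G or NaCr, and no meaning is assumed for them here. How the siRNA was delivered, what the control embryos received and how many embryos went into a library are not given in the sources used here, so p-values measure the spread between libraries, which may be technical. In these bulk libraries fewer cells of a type and less RNA per cell cannot be told apart. The libraries held 3202332 to 24785201 counts, the lowest being replicate 1 of late 8-cell P300 siRNA.

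Each ribosome carries a large subunit of Rpl proteins and a small subunit of Rps proteins, built around ribosomal RNA in near-equal amounts, and the acidic proteins Rplp0, Rplp1 and Rplp2 form a flexible stalk that recruits translation factors. Their mRNAs belong to the TOP class, which begins with a run of pyrimidines and is translated under the control of mTOR and Larp1. In mammals these genes are among the most active housekeeping genes, and the mouse embryo, which starts on ribosomes stored by the oocyte, begins to make its own after its genome is activated at the 2-cell stage. Unincorporated Rpl5 and Rpl11 can bind Mdm2 and stabilise p53. Because these genes have many processed pseudogenes and the handling of reads that match several places was not stated, levels of single genes are uncertain.

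The start sites of the genes carried the letters that this class is known for more often than other genes did. RefSeq (GRCm38.p6) gave a promoter for 64 of the 85 genes. The letters CTTTCC on the sense strand within 15 bases either side of the start were found in 10 of them (15.6%), against 1.67% of 27025 genes with a promoter. The letters CCGGAAG, the core bound by ETS factors such as Gabpa, were found on either strand in the 300-base window of 25 (39.1%), against 9.93%. The letters TATAAA in the 50 bases before the start were found in 1 (1.56%), against 3.15%. The first 4 windows below are members with the pyrimidine letters, in capitals, at the start, and the last 3 are abundant members by FPKM (a level per length) with the ETS letters or their reverse complement in capitals. They were chosen for these letters, which most members with a promoter lacked.
Rpl35 (chr2:39005117-39005146, minus strand): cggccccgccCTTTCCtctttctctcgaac
Rpl18 (chr7:45718056-45718085, plus strand): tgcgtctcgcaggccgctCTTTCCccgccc
Rpl38 (chr11:114668565-114668594, plus strand): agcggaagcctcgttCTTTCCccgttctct
Rps10 (chr17:27635230-27635259, minus strand): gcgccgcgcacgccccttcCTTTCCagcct
Rpl41 (chr10:128549207-128549236, minus strand): ctagtaaggcagCCGGAAGtcgctgtctcg
Rps26 (chr10:128626703-128626732, minus strand): tttaatcttccgCCGGAAGgttaaatagtt
Rpl19 (chr11:98026659-98026688, plus strand): gacttagcgtgaCTTCCGGctacccagagg
These matches are descriptions of the letters and not of binding.

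Before the results, 1 library and 1 data column need naming. Replicate 1 of late 8-cell P300 siRNA stood apart from replicate 2 in the ribosomal protein genes: the log2 levels of the members correlated at 0.936 between these 2 libraries, against 0.9902 to 0.9989 between the libraries of the other groups, and the counts and medians of the late 8-cell siRNA comparisons are given with and without it. The FPKM column of control early 8-cell replicate 2 did not follow its counts, with a correlation of 0.851 against 0.9957 or more in the others. It was left out of every FPKM level and ranking of genes below. The group share of summed FPKM included it, and the limma alternative on FPKM was run both with and without it. Ep300, the target of the siRNA, read 11.4 to 29.9 CPM (counts scaled to library size) in P300 siRNA libraries and 41.5 to 88.4 CPM in controls over the 3 earlier stages (edgeR adjusted p = 0.318 late 2-cell, 0.00128 in 4-cell and 0.000819 in early 8-cell embryos). In late 8-cell embryos its levels were 14.75 and 16.2 CPM with I1394G, 11.6 and 12.6 CPM with NaCr, 16.2 and 13.2 CPM with P300 siRNA alone, and 22.0 and 15.2 CPM in controls. The log2 difference of siRNA alone from control was -0.36 ± 0.37 (SE; edgeR adjusted p = 0.49968), so Ep300 does not check the labels at that stage. Defining blood and sperm markers were at or near 0, summing to at most 2.12 and 3.35 CPM in any library, and the cumulus and granulosa list summed to at most 76.3 CPM.

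Ribosomal protein mRNA was scarce at the late 2-cell stage and abundant from the 4-cell stage on. The 85 genes took 7.34% and 5.84% of all counts in the control 4-cell libraries, against 0.814% and 0.862% in the control late 2-cell libraries. In P300 siRNA embryos the same share was 7.46% and 6.72% at the 4-cell stage, against 0.965% and 1.09% at the late 2-cell stage. The 4-cell and late 2-cell libraries did not overlap. From the 4-cell stage on, every library but 1 lay between 5.84% and 7.46%, and replicate 1 of late 8-cell P300 siRNA held 3.72%. Per length, the genes made up 36 to 43 of the 100 highest FPKM values in the libraries from the 4-cell stage on, except 26 in that replicate, and 5 or 6 of them in each late 2-cell library.

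**Figure D1:**
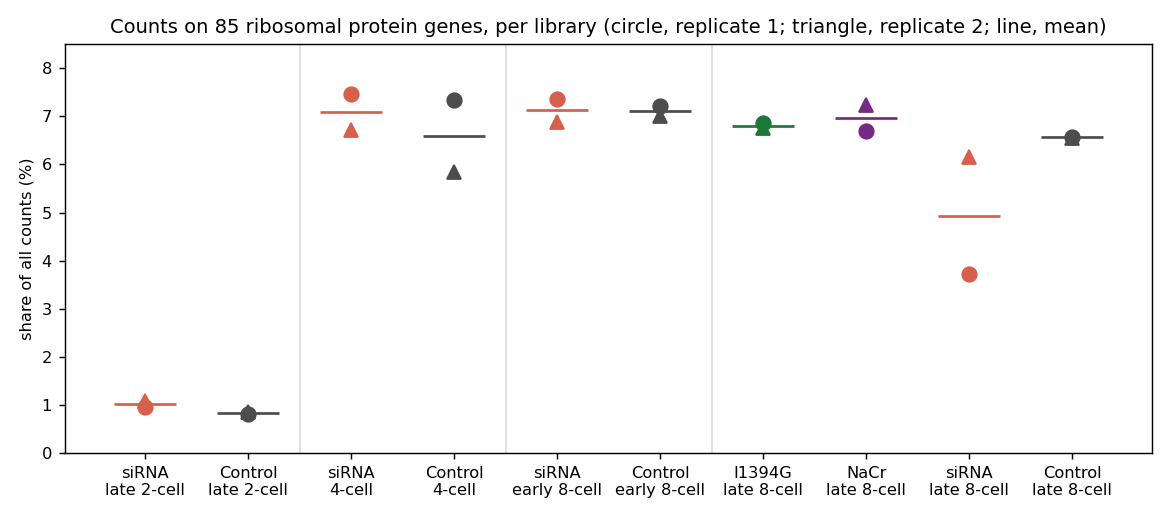
Share of all counts on the 85 ribosomal protein genes (y axis, percent) in each of the 20 libraries, by group, with stages in order and a line at each group's mean. The late 2-cell libraries lie at or below 1.09%, the later ones at 5.84% or above except replicate 1 of late 8-cell P300 siRNA at 3.72%.

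In controls, 82 of the 84 tested genes were higher at the 4-cell than at the late 2-cell stage, where 27% of all genes tested were called higher and 34.2% lower. A call is an adjusted p under 0.05 in edgeR's two-sided quasi-likelihood test over all genes. Counts from other fits, with fewer libraries or another scale, have no share of all genes beside them unless it is printed. The median member change was 3.71 on the log2 scale, or 13.1-fold, and the median of all genes was -0.40. Against that median the members stood 4.11 higher, and 4.12 or 4.0995 higher with DESeq2 size factors or total counts as the scale, which moved the median of all genes to -0.65 and -0.80. Other genes with a mean of at least 100 CPM were higher in 68.9% of cases, with a median of 1.40. The late 2-cell samples carry identifiers from a later block than the rest of the series, so stage and submission cannot be told apart.

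The steepest change was that of Rpl7a, a large-subunit protein. It read 633 and 438 CPM in control 4-cell libraries and 10.4 and 10.65 CPM in control late 2-cell libraries (5.67 ± 0.27, log2 fold change ± SE here and below, adjusted p = 2.9e-11). Rpl5, which carries 5S ribosomal RNA into the large subunit, read 2153 and 1504 CPM at the 4-cell stage and 50.9 and 59.2 CPM at the late 2-cell stage (5.06 ± 0.20, adjusted p = 7.4e-12). Rps6, the small-subunit protein phosphorylated by S6 kinases, read 2038 and 1550.5 CPM at the 4-cell stage and 90.5 and 100.6 CPM at the late 2-cell stage (4.23 ± 0.19, adjusted p = 2.0e-11). In all 3 genes the lower 4-cell library lay several-fold above the higher late 2-cell library. The stalk gene Rplp0 moved less, and read 3466 and 2995.5 CPM at the 4-cell stage and 980.5 and 1040 CPM at the late 2-cell stage (1.68 ± 0.17, adjusted p = 1.1e-07). The genes without a call were Rpl10l and Rpl3l. Rpl10l, an autosomal copy of X-linked Rpl10 with a known role in mouse sperm formation, read 74.4 and 77.8 CPM at the 4-cell stage and 41.2 and 64.4 CPM at the late 2-cell stage (0.53 ± 0.25, adjusted p = 0.0778). Rpl3l, the muscle form of Rpl3, read 7.13 and 7.24 CPM at the 4-cell stage and 9.92 and 14.0 CPM at the late 2-cell stage (-0.73 ± 0.46, adjusted p = 0.178), and with total counts as the scale it was called lower.

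Genes with Rpl symbols (large subunit) and Rps symbols (small subunit) were described apart. Their medians were 3.76 and 3.56 in this step, with 50 of 52 large-subunit and 32 of 32 small-subunit genes called higher. Genes with and without CTTTCC at the start had medians of 3.60 (10 genes) and 3.56 (53 genes). The order of the members by FPKM kept its shape across the later groups, with Spearman correlations between 0.948 and 0.996 over the 85 genes, and between 0.784 and 0.865 when a late 2-cell group was set against a later one. These are descriptions over genes that share their transcript lengths and their libraries.

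In this step 27% of all genes were called higher and 34.2% lower, and 68.9% of other genes of at least 100 CPM higher. Of other genes tied to these mRNAs, 23 of 24 tested TOP mRNA genes outside the ribosomal proteins were called higher at the 4-cell stage, with a median of 2.69. Of 18 chaperones and importers of ribosomal proteins, 15 were called higher and Ipo9 lower. Of 15 factors reported at these promoters, 6 were called higher (Gabpa, Myc, Sp1, Taf1, Tbp and Yy1) and 3 lower (Crebbp, Max and Mycn). Oocyte transcripts moved the other way, with 8 of 10 called lower and a median of -3.85, and so did 6 of 8 late 2-cell transcripts, with Tcstv1 called higher. Their part in the ribosomal protein result was not tested.

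Between the later control stages few members were called. At the early 8-cell against the 4-cell stage edgeR called 0 members, with 3 at an unadjusted p under 0.05 and 0 by DESeq2 or limma, where 1.13% of all genes were called, 0.62% higher and 0.506% lower. At the late 8-cell against the early 8-cell stage 1 member was called higher and 6 lower, where 15% and 11.2% of all genes were called. The higher one was Rps4l, an autosomal copy of X-linked Rps4x, at 422 and 401 CPM in late 8-cell controls and 291 and 211 CPM in early 8-cell controls (0.71 ± 0.20, adjusted p = 0.0124). Rpl41, the shortest ribosomal protein, read 2855 and 2742 CPM in late 8-cell controls and 5111 and 5488 CPM in early 8-cell controls (-0.92 ± 0.26, adjusted p = 0.0132). Rpl3l read 0.565 and 0.662 CPM in late 8-cell controls, or 11 and 12 counts, and 5.22 and 8.88 CPM in early 8-cell controls (-3.51 ± 0.53, adjusted p = 0.000168). The others were Rpl29, Rpl10a, Rps27 and Rpl21. Without either late 8-cell control 1 member had a call. Fitted on these 4 libraries alone, edgeR called 4 members higher and 28 lower, with no share over all genes given here for that fit. In 44 of 84 members both late 8-cell controls lay below both early 8-cell controls, against 27.3% of all genes, and in 18 above, against 38.1%.

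**Figure D2:**
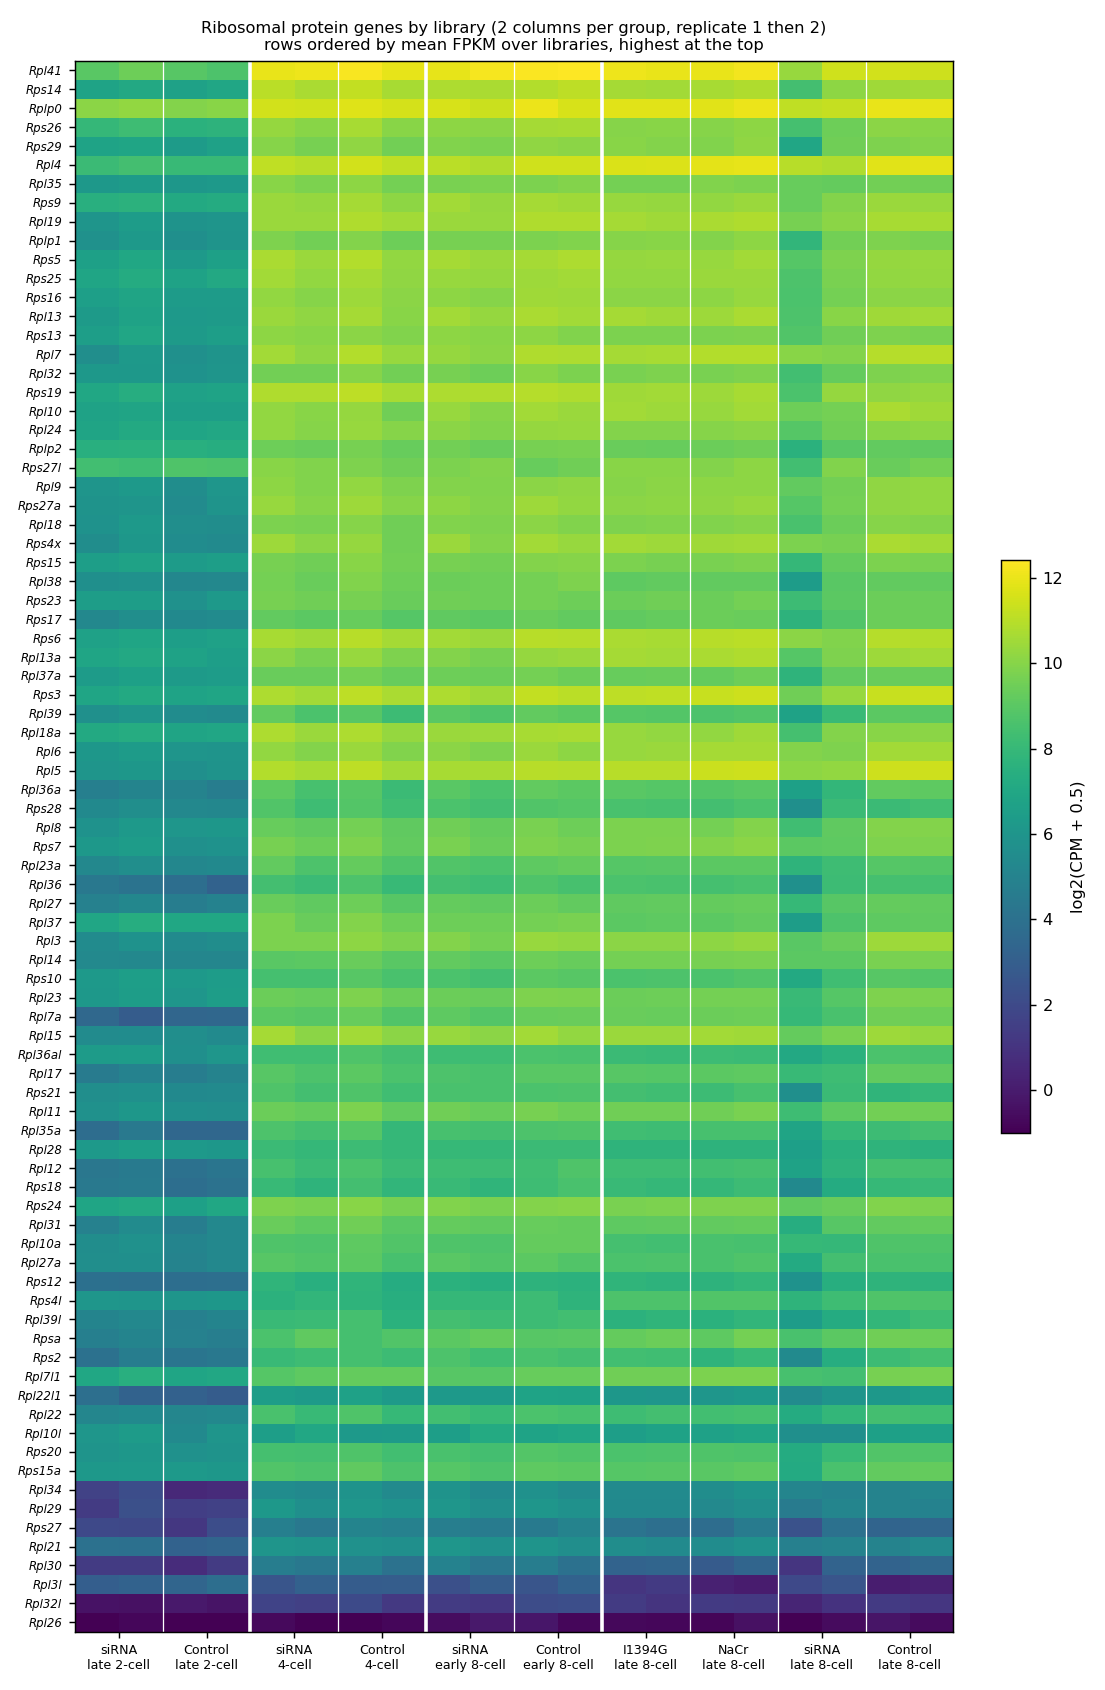
Level of 83 of the 85 genes (rows, ordered by mean FPKM) in each of the 20 libraries (columns, 2 per group), as log2 of CPM plus 0.5. The late 2-cell columns are darker over nearly all rows, and the first of the late 8-cell siRNA columns is darker than its partner in most rows.

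By mean FPKM over 19 libraries the abundant members included Rpl41 (6752), Rps14 (2054), Rplp0 (2023) and Rps26 (1933). The least abundant were Rpl21 (21.5), Rpl30 (19.5), Rpl3l (3.56), Rpl32l (2.77) and Rpl26 (0.237). Rpl21, Rpl30 and Rpl26 encode proteins present in every ribosome, and the part of pseudogene copies in their low values was not tested.

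At the late 2-cell stage P300 siRNA embryos had slightly more ribosomal protein mRNA than controls, without a call. The share of counts was 0.965% and 1.09% in P300 siRNA libraries and 0.814% and 0.862% in controls, which did not overlap. The member median was 0.24 on the log2 scale, or 1.18-fold, against -0.04 over all genes. In 44 of 84 members both siRNA libraries lay above both controls, against 19.7% of all genes, and 0.00602% of all genes were called. edgeR called 0 members, with 6 at an unadjusted p under 0.05, and DESeq2 and limma called 1 each, Rpl34. The largest difference was that of Rpl34, at 2.63 and 4.08 CPM in P300 siRNA libraries and 0.955 and 1.04 CPM in controls (1.77 ± 0.36, adjusted p = 0.234), from 18 and 47 counts in P300 siRNA libraries and 13 and 10 in controls. Fitted on these 4 libraries alone, edgeR called 5 members, with no share over all genes given here for that fit. The 10 oocyte transcripts summed to between 2830 and 2917 CPM in P300 siRNA libraries and between 3905 and 3965 CPM in controls, and their part in this difference was not tested.

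At the 4-cell stage edgeR called 0 members between P300 siRNA embryos and controls, with 1 (Rpl10l) at an unadjusted p under 0.05, and DESeq2 and limma called 0, where 15% of all genes were called, 7.77% higher and 7.25% lower. Of other genes of at least 100 CPM 18.9% were called lower. The member median was -0.06. The 2 controls differed from each other more than the groups did, at 7.34% and 5.84% of counts, and the siRNA libraries stood at 7.46% and 6.72%. In 3 of 84 members both siRNA libraries lay above both controls and in 11 below, against 23.3% and 20.7% of all genes. Without control replicate 1 the member median was 0.18 with 2 members called higher, and without control replicate 2 it was -0.29. Rpl10l read 90.6 and 129.6 CPM in P300 siRNA libraries and 74.4 and 77.8 CPM in controls (0.54 ± 0.25, adjusted p = 0.158).

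At the early 8-cell stage 3 members were lower in P300 siRNA embryos and none higher, where 8.3% of all genes were called lower and 8.21% higher, and 22.4% of other genes of at least 100 CPM were called lower. They were Rpl10a at 419 and 414 CPM in P300 siRNA libraries and 618 and 612 CPM in controls (-0.56 ± 0.16, adjusted p = 0.0226), Rpl4 at 2085 and 1808 CPM in P300 siRNA libraries and 2778 and 2850 CPM in controls (-0.53 ± 0.16, adjusted p = 0.0319), and Rpl7 at 1242 and 1103 CPM in P300 siRNA libraries and 1814 and 1774 CPM in controls (-0.61 ± 0.20, adjusted p = 0.0457). All are large-subunit proteins. The share of members called, 3.57%, was below that of all genes. In 56 of 84 members, however, both siRNA libraries lay below both controls, against 24% of all genes, and in 2 both lay above, against 26.9%. The member median was -0.28 and that of other genes of at least 100 CPM -0.20. With total counts as the scale the member median was 0.01 and 0 members were called, since the all-gene median then moved to 0.32, and 0 were called without any 1 of the 4 libraries. The share of all counts did not part the groups, at 7.37% and 6.88% in P300 siRNA libraries and 7.21% and 6.9997% in controls. Stage markers moved in the same libraries: 8 of 10 genes of the 8-cell and later embryo were called lower, with sums from 1795 to 2333 CPM in P300 siRNA libraries and from 5169 to 5511 CPM in controls. Of 8 late 2-cell transcripts 2 were called higher (Tcstv3 and Usp17lc), with sums from 59.2 to 68.7 CPM in P300 siRNA libraries and from 40.1 to 47.8 CPM in controls, and of 9 genes linked to ribosomal protein stress and p53, 2 were (Ccng1 and Trp53). Their part in the ribosomal protein values was not tested.

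The late 8-cell stage held the largest difference of the 4 stages. Of 84 members 58 were called lower in P300 siRNA embryos, where 14.3% of all genes were called lower, and 1, Rpl3l, was called higher, where 13.6% were. The member median was -0.88, or 0.545 of the control level, against 0.06 over all genes. Among other genes with a mean of at least 100 CPM 37.3% were called lower, with a median of -0.38. In 76 of 84 members both siRNA libraries lay below both controls, against 33.4% of all genes. Large- and small-subunit genes had medians of -0.85 and -0.90, with 33 of 52 and 25 of 32 called lower. These medians were -0.58 and -0.50 without siRNA replicate 1. On the CPM scale used here, replicate 2 by itself lay below both controls in 77 of 84 members. No share of all genes is given here for that single library. With total counts as the scale its difference from controls was much smaller, as given below.

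Among the 10 lower members of lowest adjusted p were genes with Rpl and with Rps symbols. Rpl7l1, a Rpl7-like gene, read 362 and 345 CPM in P300 siRNA libraries and 812 and 845 CPM in controls (-1.23 ± 0.16, adjusted p = 5.1e-05). Rpl5 read 1116 and 1202 CPM in P300 siRNA libraries and 2750.5 and 2714.5 CPM in controls (-1.24 ± 0.17, adjusted p = 6.7e-05). Rpl3, at the peptidyl transferase centre, read 516 and 655 CPM in P300 siRNA libraries and 1385 and 1401 CPM in controls (-1.25 ± 0.18, adjusted p = 9.2e-05). The groups were far apart in all 3. Rps3, a small-subunit protein at the mRNA entry channel, read 731 and 1291 CPM in P300 siRNA libraries and 2539 and 2570 CPM in controls (-1.34 ± 0.22, adjusted p = 0.000286). The lowest fold change was that of X-linked Rpl36a, at 100.1 and 238 CPM in P300 siRNA libraries and 586 and 536 CPM in controls (-1.72 ± 0.32, adjusted p = 0.000844). Rps6, Rpl4, Rpl17, Rpl23 and Rpl36al were also among those 10. Of the stalk genes Rplp0 was called, at 2228 and 2427 CPM in P300 siRNA libraries and 4050 and 3906 CPM in controls (-0.77 ± 0.16, adjusted p = 0.00218). Rplp1 and Rplp2 were not, at -0.82 ± 0.34 and -0.73 ± 0.28 (adjusted p = 0.0767 and 0.0636). Rpsa, which is also the laminin receptor precursor, read 385 and 527 CPM in P300 siRNA libraries and 718 and 715 CPM in controls (-0.65 ± 0.22, adjusted p = 0.0336). With siRNA replicate 1 left out, the log2 difference was -1.27 for Rpl7l1, -1.19 for Rpl5, -1.09 for Rpl3, -0.99 for Rps3, -1.24 for Rpl36a and -0.72 for Rplp0, each still called by edgeR, while that of Rpsa was -0.45 without a call.

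**Figure D3:**
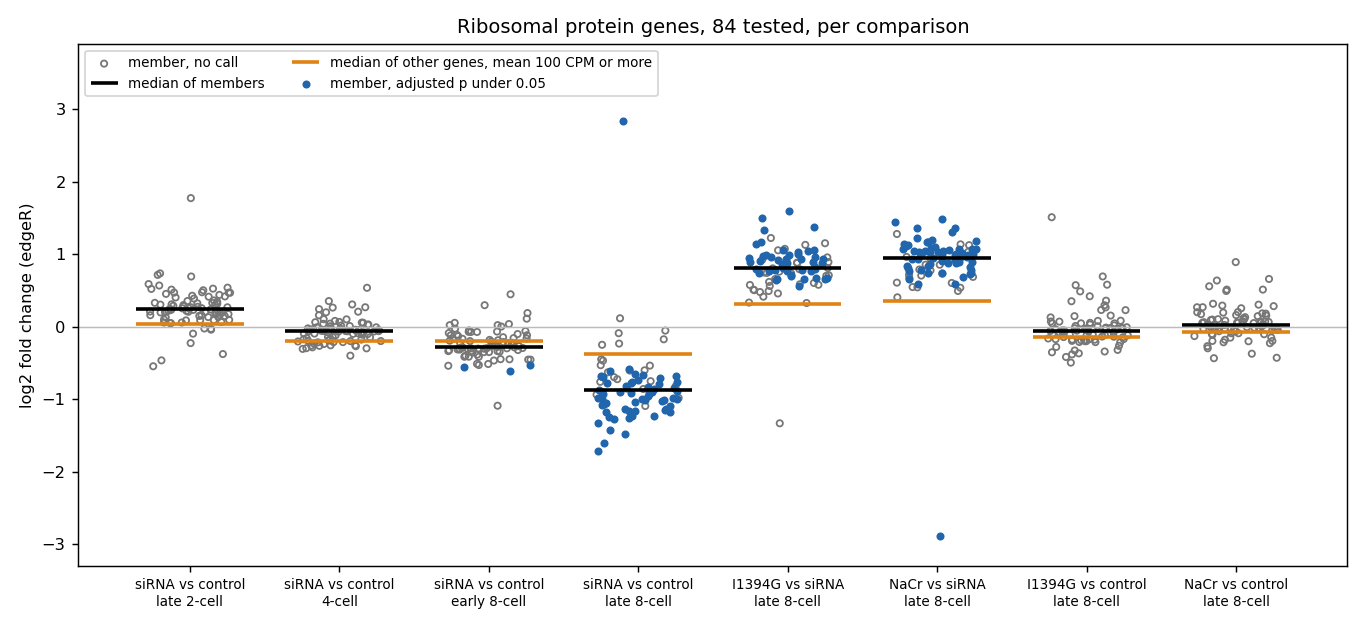
Log2 fold change of the 84 tested genes in each comparison (points; filled where the adjusted p was under 0.05), with the member median in black and the median of other genes of at least 100 CPM in orange. Members lie around -0.88 for siRNA against control at the late 8-cell stage, around 0.81 and 0.95 for I1394G and NaCr against siRNA, and around 0 for I1394G and NaCr against control, with Rpl3l as the far point in the late 8-cell siRNA and NaCr against siRNA comparisons.

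The size of the late 8-cell difference depended on the library and on the scale. Counts called below by limma or with a library left out have no share of all genes beside them here. Against the control mean, the member median was -1.42 in siRNA replicate 1 and -0.54 in replicate 2. With total counts as the scale these were -0.96 and -0.04, while the medians of all genes were 0.25 and 0.46. Without replicate 1, 33 members were called lower with a median of -0.55, and without replicate 2, 77 with a median of -1.43; without control replicate 1 or 2 there were 37 and 41. With total counts as the scale, 19 of 84 members and 1018 of 16603 genes were called lower, and with limma on FPKM 12 members. Set against the median of all genes, the members stood at -0.94 with TMM scaling, -0.95 with DESeq2 size factors, -0.93 with total counts, and -0.62 with TMM scaling and no replicate 1. As a share of all counts they held 3.72% and 6.15% in P300 siRNA libraries, both below the 6.57% and 6.55% of controls. Of the 22 called members followed by the naming rule 11 kept their call and direction in every alternative and with every library left out, among them Rpl3, Rpl5, Rpl7l1, Rpl17, Rpl23, Rpl36a, Rpl36al, Rpl39, Rps3 and Rpl3l.

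The 2 siRNA libraries differed by transcript length. In replicate 1 the 20 members with an annotated mRNA of up to 600 bases had a median of -1.77 against the control mean, and the 32 over 1000 bases one of -1.32. In replicate 2 the order was turned, at -0.25 and -0.71. Rps29, a short small-subunit member, read 124 CPM in replicate 1 and 742 CPM in replicate 2 of P300 siRNA and 899 and 962 CPM in controls (-1.10 ± 0.45, adjusted p = 0.0778). Other genes of up to 600 bases had medians of -0.49 in replicate 1 and 0.05 in replicate 2. In the I1394G and NaCr libraries the short members stood between -0.00 and 0.17, and those over 1000 bases between -0.14 and 0.02. In each of these libraries the short members stood higher than the long ones, as in siRNA replicate 2. Replicate 1 was also the shallowest library, and the part of depth and length in the result was not tested.

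**Figure D4:**
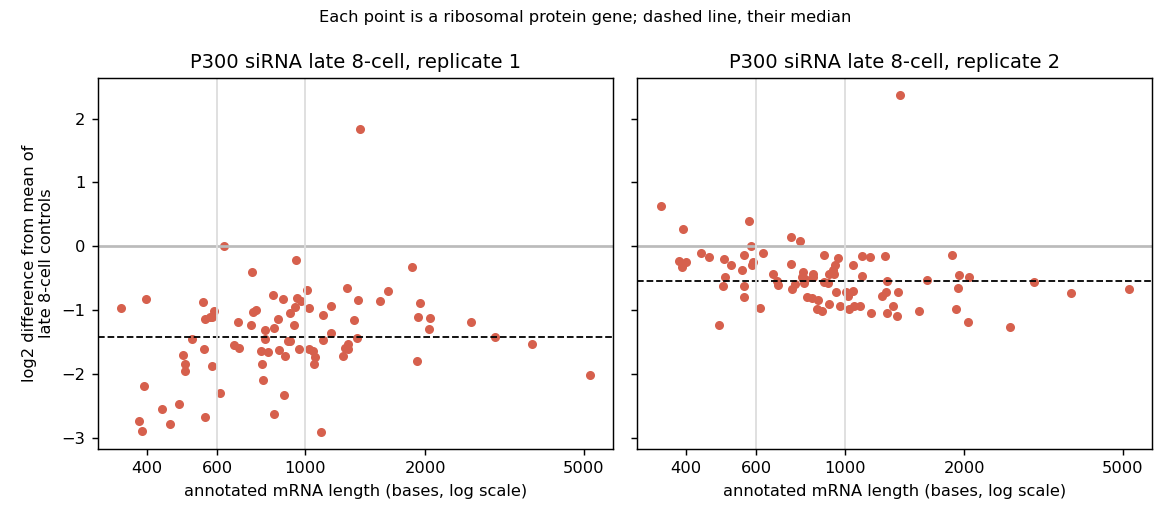
Log2 difference of each of the 84 genes from the mean of the late 8-cell controls (y axis) against annotated mRNA length (x axis, log scale) in the 2 late 8-cell P300 siRNA libraries. In replicate 1 the short genes reach the lowest values, and in replicate 2 they lie nearest to 0.

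Genes of other lists were called in the same libraries. Of all genes 14.3% were called lower and 13.6% higher. Counts given below without siRNA replicate 1 have no such share beside them. Of 24 TOP mRNA genes outside the ribosomal proteins 16 were called lower, with a median of -0.65, among them Eef2 and Rack1. Of 18 chaperones and importers 12 were called lower, with a median of -0.63. Of 16 genes of mTOR and S6 kinase control 3 were called lower (Larp1, Mlst8 and Rps6kb1), a share near the 14.3% of all genes, with a median of 0.05 and overlapping sums of 4076 to 5241 CPM in P300 siRNA libraries and 4800 to 5132 CPM in controls. Of 15 promoter factors 3 were called lower (Gabpb1, Max and Myc), again near that share, with a median of -0.36. Of 3 ribosomal protein fusion or related genes 1 was called lower (Rack1). Of 9 genes linked to ribosomal protein stress and p53, 5 were called higher (Ccng1, Cdkn1a, Mdm2, Rrm2b and Zmat3) and none lower; Rps27l and Rpl22l1 stand on that list too, and Naca, Nap1l1 and Rack1 each stand on more than 1 list. Markers of embryo stage moved too: 8 of 10 genes of the 8-cell and later embryo were called lower, with sums from 1649 to 2313 CPM in P300 siRNA libraries and from 5726 to 5822 CPM in controls, and 4 of 8 late 2-cell transcripts were called higher, with sums from 93.9 to 139.9 CPM in P300 siRNA libraries and from 25.9 to 43.2 CPM in controls. Of 10 oocyte transcripts 1 was called higher. Of 6 tested cumulus and granulosa genes 2 were called higher (Cyp11a1 and Ptx3) while the list of 11 summed to between 21.2 and 31.9 CPM in P300 siRNA libraries and between 22.6 and 30.55 CPM in controls. Without siRNA replicate 1, 14 of the other TOP mRNA genes, 10 of the chaperones and importers, 4 of the mTOR and S6 kinase genes and 8 of the 8-cell and later genes were called lower, and 3 of the stress genes, 2 of the late 2-cell transcripts and 3 of 7 tested cumulus and granulosa genes were called higher. The part of these genes in the ribosomal protein result was not tested.

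In this paragraph, counts for another scale, for limma or with a library left out have no share of all genes beside them. The siRNA effect differed between stages for 28 of 84 members in a joint test over the 4 stages, where 16.3% of all genes did. With total counts as the scale it did for 8. It did for 8 without either late 8-cell control, 11 without late 2-cell siRNA replicate 2, 13 and 17 without late 2-cell control replicate 1 or 2, 18 and 69 without late 8-cell siRNA replicate 1 or 2, and 49 without 4-cell control replicate 1. Between the late and the early 8-cell stage the difference itself passed for Rpl5 (-0.95 ± 0.24, adjusted p = 0.0250), Rpl7l1 (-0.88 ± 0.23, adjusted p = 0.0298), Rpl36al (-0.94 ± 0.26, adjusted p = 0.0387) and, upwards, Rpl3l (3.13 ± 0.70, adjusted p = 0.0151), where 6.63% of all genes passed, 3.62% downwards and 3.01% upwards. Without control early 8-cell replicate 2, P300 siRNA early 8-cell replicate 1 or either late 8-cell control, none of the 4 passed, and without late 8-cell siRNA replicate 2, 56 members did. Averaged over the 4 stages 24 members were called lower and 0 higher, where 14.8% of all genes were called lower. With total counts, and with limma on FPKM, 0 were called lower and 3 higher, so the average has no direction that holds across scales. With 1 library left out, 15 members were called lower without late 2-cell siRNA replicate 1 and 60 without late 8-cell siRNA replicate 2.

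Late 8-cell embryos given I1394G or NaCr with the siRNA had more ribosomal protein mRNA than those given P300 siRNA alone. With I1394G, 47 members were called higher than with P300 siRNA alone and none lower, where 6.19% of all genes were called higher and 4.58% lower, and the median was 0.81. With NaCr, 60 were called higher and Rpl3l lower, where 8.77% and 6.57% were, and the median was 0.95. Other genes of at least 100 CPM had medians of 0.31 and 0.36, with 21.7% and 30.3% called higher. Both comparisons share the 2 siRNA libraries with each other and with the comparison above, so they are not separate evidence. Counts below with a library left out or another scale have no share of all genes beside them here. They cannot be set against a background. Without siRNA replicate 1 the members called higher fell to 6 with I1394G and 22 with NaCr, with medians of 0.47 and 0.59, and with total counts they fell to 7 and 11, each of these 2 beside 1 called lower. Without I1394G replicate 1 or 2 they were 7 and 8, and without NaCr replicate 1 or 2, 37 and 22. Of the 24 other TOP mRNA genes 7 were called higher with I1394G and 12 with NaCr than with P300 siRNA alone, and of the 18 chaperones and importers 4 and 8, with none lower. These were 7 and 9 TOP genes and 3 and 7 chaperones and importers without siRNA replicate 1. Of the 9 stress genes Mdm2 and Rrm2b were called lower in each, while the list summed to between 2814 and 2888 CPM with I1394G, between 2561 and 2717 CPM with NaCr and between 2471 and 3013 CPM with P300 siRNA alone, which overlap, with medians of 0.33 and -0.07. Against controls, at 1482 to 1709 CPM, 2 stress genes were called higher with I1394G (Ccng1 and Cdkn1a) and 1 with NaCr (Ccng1). In each, 1 stress gene was called lower than with P300 siRNA alone when siRNA replicate 1 was left out.

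Stage and cell type markers moved in these libraries as well. Against P300 siRNA alone, 6.19% of all genes were called higher and 4.58% lower with I1394G, and 8.77% and 6.57% with NaCr. Counts without siRNA replicate 1 have no such share beside them. Of 10 genes of the 8-cell and later embryo 6 were called higher with I1394G and 7 with NaCr than with P300 siRNA alone, and the list summed to between 5024 and 5125 CPM with I1394G, between 6447 and 6606 CPM with NaCr and between 1649 and 2313 CPM with P300 siRNA alone. The counts called were 3 and 6 without siRNA replicate 1. Of 8 late 2-cell transcripts 2 were called lower with I1394G and 1 with NaCr. The 11 cumulus and granulosa genes summed to between 58.5 and 67.3 CPM with I1394G and between 52.2 and 73 CPM with NaCr, above the 21.2 to 31.9 CPM with P300 siRNA alone, and Amhr2 was called higher in each. Of these 11 genes 2 had no count with I1394G, 5 with NaCr and 3 with P300 siRNA alone. The part of these markers in the ribosomal protein values was not tested.

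Rpl7l1 read 730.5 and 723 CPM with I1394G, 870 and 868 CPM with NaCr, and 362 and 345 CPM with P300 siRNA alone (1.04 ± 0.16, adjusted p = 0.00102 for I1394G; 1.30 ± 0.16, adjusted p = 0.000137 for NaCr). Rps3 read 2179 and 2270 CPM with I1394G, 2473 and 2717 CPM with NaCr, and 731 and 1291 CPM with P300 siRNA alone (1.14 ± 0.22, adjusted p = 0.00373; 1.36 ± 0.22, adjusted p = 0.000647). Rpl36a read 499.7 and 465 CPM with I1394G, 447 and 509.5 CPM with NaCr, and 100.1 and 238 CPM with P300 siRNA alone (1.502 ± 0.32, adjusted p = 0.00656; 1.49 ± 0.32, adjusted p = 0.00433). In each of the 3 genes the treated libraries lay above both siRNA libraries. Without siRNA replicate 1, Rpl7l1 stood at 1.09 with I1394G and 1.34 with NaCr and Rps3 at 0.79 and 1.02, all still called, while Rpl36a stood at 1.03 without a call with I1394G and at 1.02 with a call with NaCr. Rps2, the member with the largest rise with I1394G, read 324 and 316 CPM there and 42.2 and 166 CPM with P300 siRNA alone (1.59 ± 0.38, adjusted p = 0.0130). Rpl13a, whose protein can leave the ribosome to silence inflammatory mRNAs in human cells, rose by 1.17 ± 0.24 with I1394G and 1.36 ± 0.24 with NaCr (adjusted p = 0.00568 and 0.00134). Without siRNA replicate 1, edgeR no longer called either gene with I1394G, Rps2 at 0.95 and Rpl13a at 0.79, and still called Rpl13a with NaCr at 0.98.

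Against controls edgeR called 0 members with I1394G and 0 with NaCr, with 4 at an unadjusted p under 0.05 in each and 0 by DESeq2 or limma, where 3.17% and 1.57% of all genes were called. Of all genes 1.99% were called higher and 1.18% lower with I1394G, and 1.07% higher and 0.5% lower with NaCr. The medians were -0.05 and 0.03. A miss of the threshold does not show that levels were equal, and fitted on the 4 libraries compared, edgeR called 17 and 11 members. The share of all genes called in those smaller fits is not given here, so these counts have no background beside them. Shares of counts were 6.86% and 6.75% with I1394G, 6.69% and 7.23% with NaCr, and 6.57% and 6.55% in controls. Between I1394G and NaCr edgeR called 0 members and 0% of all genes, with 2 members at an unadjusted p under 0.05 and 0 by DESeq2 or limma, and the median difference was -0.09.

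The 8 pairs of related genes were followed through the groups, each as a duplicate and its partner. Coding identity in GENCODE M21 was 73.2% for Rpl3l and Rpl3, 84.7% for Rpl10l and Rpl10, 87.7% for Rpl36al and Rpl36a, 85% for Rpl39l and Rpl39, 66.9% for Rpl22l1 and Rpl22, 53% for Rpl7l1 and Rpl7 and 61% for Rps27l and Rps27, and Rps4l had no coding annotation. Between the more alike pairs reads could have been split, so their ratios are uncertain. The levels below are CPM, which do not allow for length, so they are compared within a gene across groups.

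Of the 4 X-linked partners, Rpl10, Rpl36a and Rps4x had larger 4-cell over late 2-cell log2 changes than their autosomal copies, and Rpl39 and Rpl39l had similar ones. The log2 changes were 3.42 for Rpl10 and 0.53 for Rpl10l, 3.76 for Rpl36a and 2.71 for Rpl36al, 4.48 for Rps4x and 1.54 for Rps4l, and 3.17 for Rpl39 and 3.13 for Rpl39l, and their differences were not tested. Autosomal pairs showed this too. In control 4-cell against late 2-cell libraries the log2 ratio of Rpl3l to Rpl3 was -7.19 and -6.87 against -2.05 and -1.72. That of Rpl7l1 to Rpl7 was -1.64 and -1.12 against 1.16 and 1.13. That of Rps27l to Rps27 was 4.79 and 4.61 against 7.53 and 6.49. Only Rpl22l1 to Rpl22 overlapped, at -2.07 and -1.68 against -1.98 and -2.37. Rpl36al, an autosomal copy of Rpl36a, read 428 and 335 CPM in control 4-cell libraries and 51.5 and 64.8 CPM in control late 2-cell libraries, while Rpl36a read 490 and 279 CPM in the 4-cell and 31.6 and 24.9 CPM in the late 2-cell libraries. Rpl10l stayed between 41.2 and 146.6 CPM over all 20 libraries, and Rpl10 lay between 91.6 and 114 CPM at the late 2-cell stage and between 705 and 1674 CPM later. In late 8-cell P300 siRNA libraries Rpl10l read 51.2 and 50.6 CPM, against 99.9 and 100.8 CPM in controls (-0.98 ± 0.25, adjusted p = 0.00871). Rpl39l, known from mouse testis, read 84.4 and 154.55 CPM there and 235 and 304 CPM in controls (-1.16 ± 0.28, adjusted p = 0.00502). With siRNA replicate 1 left out, the difference of Rpl10l was -0.995 and still called, and that of Rpl39l was -0.81 without a call.

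Rpl3l went the other way from its partner. It read 3.45 and 5.23 CPM in late 8-cell P300 siRNA libraries, or 13 and 128 counts, and 0.565 and 0.662 CPM in controls, or 11 and 12 counts (2.84 ± 0.53, adjusted p = 0.000833). With I1394G it read 1.58 and 1.94 CPM and with NaCr 0.660 and 0.497 CPM, from 31 and 44 and from 10 and 4 counts. Against P300 siRNA alone this was -2.89 ± 0.56 with NaCr (adjusted p = 0.00214) and -1.33 ± 0.49 with I1394G (adjusted p = 0.0851). Without siRNA replicate 1 the difference of siRNA alone from control was 3.07 and that of NaCr from siRNA alone -3.12, both still called. At earlier stages Rpl3l read 4.35 to 14.0 CPM in every library, so the late 8-cell siRNA values lie near the early 8-cell ones of 4.35 and 7.23 CPM with siRNA and 5.22 and 8.88 CPM in controls. Rps27l, a p53 target, read 328 and 934 CPM in late 8-cell P300 siRNA libraries and 650 and 778 CPM in controls (-0.18 ± 0.29, adjusted p = 0.697), and Rps27 did not pass 32.7 CPM in any library.

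**Figure D5:**
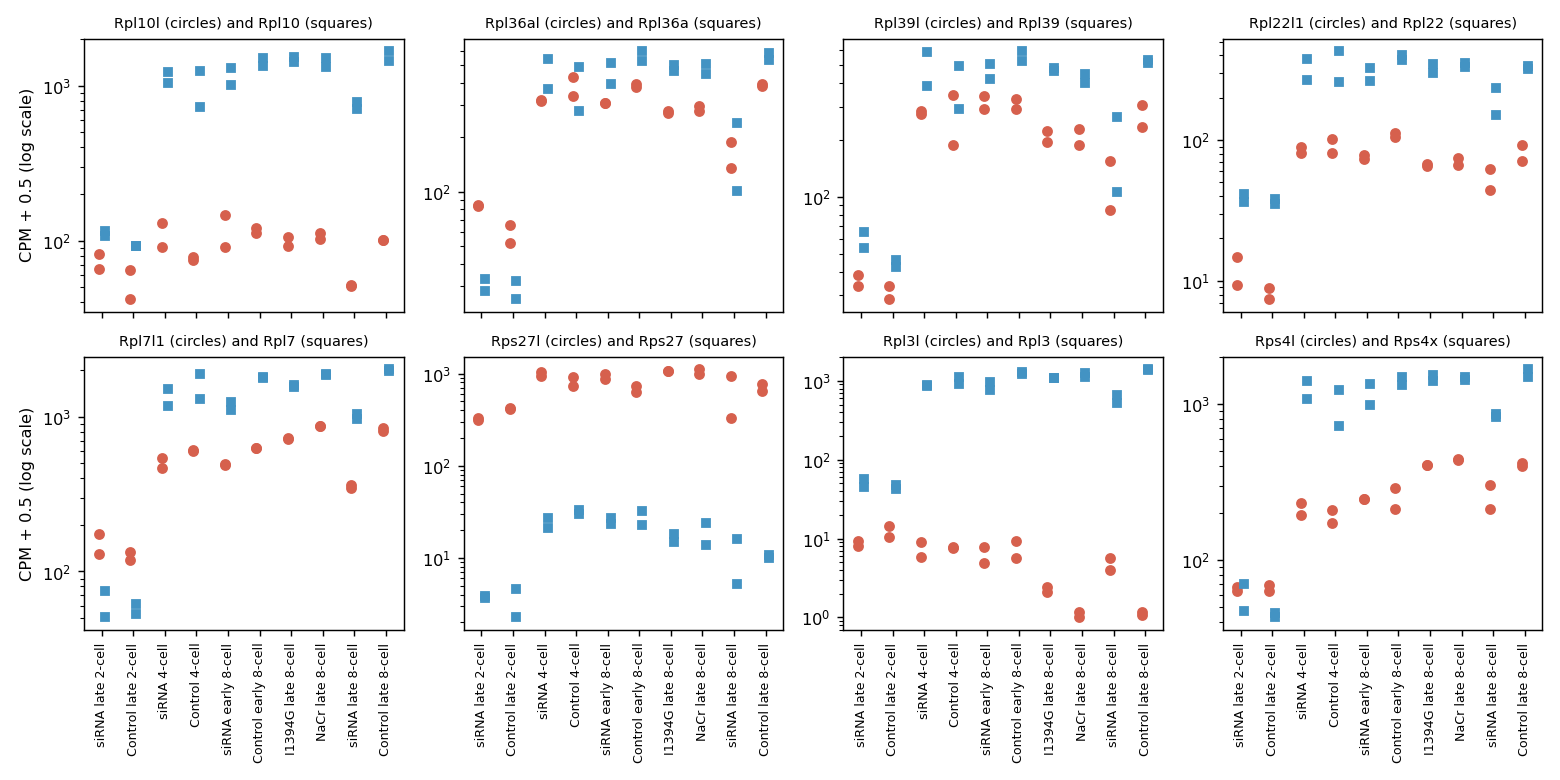
CPM plus 0.5 (y axes, log scale) of the 8 duplicates (circles) and their partners (squares) in each library, by group, 2 points per gene and group. Rpl3l lies at 0.565 and 0.662 CPM in late 8-cell controls and at 3.45 and 5.23 CPM in late 8-cell siRNA libraries, opposite to Rpl3.

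Of the tested members 4 are X-linked: Rpl10, Rpl36a, Rpl39 and Rps4x. In late 8-cell P300 siRNA replicates 1 and 2 their median difference from the control mean was -1.73 and -0.97, and that of the 80 autosomal members -1.42 and -0.50. Xist, the RNA that silences one X chromosome in female cells, read 69.8 and 53.3 CPM in these libraries and 276 and 140 CPM in controls. At the 4-cell stage Xist read 87.3 and 73.4 CPM with P300 siRNA and 72.8 and 0.367 CPM in controls. Against the control mean, the X-linked median was 0.39 in the first control and -0.39 in the second. The autosomal median moved the same way, at 0.21 and -0.21. Since the reference is the mean of these 2 controls, each pair of values mirrors by construction. The part of embryo sex in these values was not tested.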

How the data were processed

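Libraries were prepared with Smart-seq2, per the labels' protocols. Per the submitters' processing notes, the build was mm9 and the tools included HISAT2 2.2.1, Cufflinks 2.2, cutadapt 4.1 and bcl2fastq 2.20.0.422. The authors deposited raw gene counts and a table of FPKM values (fragments scaled to gene length and library size by the authors); settings, strand use and the counting of reads with several matches are not given in the sources used here.

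Counts of all 20 libraries were fitted in R 4.3.3 with edgeR 4.0.16 (default low-count filter, TMM scaling, 1 coefficient per group, two-sided quasi-likelihood F test with 10 residual and 7.98 prior degrees of freedom), and p-values were adjusted by Benjamini-Hochberg over 16603 genes. The SE is the log2 fold change over the square root of F. CPM use TMM-scaled sizes, and differences of single libraries log2 CPM with 0.5 added. Alternatives were DESeq2 1.42.0, limma 3.58.1 on log2 FPKM with 1 added (at least 1 FPKM in 2 libraries), other scalings, no filter, a replicate block, fewer libraries and each library left out. The fit was tested on simulated data. The sources used here do not say whether equal replicate numbers paired the libraries. Replicate deviations in siRNA and control libraries correlated at 0.189 in 4-cell, 0.0161 in early 8-cell, 0.0743 in late 2-cell and 0.0343 in late 8-cell embryos. With 2 libraries per group these values cannot decide it. The 2 libraries of a group were not copies, with correlations of 0.957 to 0.992 over tested genes. mRNA lengths (16209 of 16603 tested genes) and coding identity came from GENCODE M21.

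Members, gene lists and tests were chosen with earlier results of these data known. The genes named were, per comparison, up to 10 called members of lowest adjusted p in each direction, the extreme fold changes, the 8 duplicates and partners, the stalk genes, Rpsa, the X-linked members and the 5 highest and lowest mean FPKM; Rps29 and the windows printed were chosen after their values were seen. A few genes are not reported here by name.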

Additional observations from a re-analysis of the deposited data

Results flagged for a closer look

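The effect of P300 siRNA differed between the 4 stages for 28 of the 84 tested members, by edgeR's joint test of the stage differences. That was 33.3% of members, where 16.3% of all genes passed. Fewer members passed with total counts as the scale, as given above. Between the late and the early 8-cell stage 4.76% of members passed, below the 6.63% of all genes. The difference of the log2 effects passed for Rpl3l (3.13), Rpl5 (-0.95), Rpl7l1 (-0.88) and Rpl36al (-0.94). For the last 3 genes the levels in P300 siRNA embryos were further below control at the late than at the early 8-cell stage, and for Rpl3l they were above control at the late 8-cell stage. These 4 calls were all lost without control early 8-cell replicate 2, P300 siRNA early 8-cell replicate 1 or either late 8-cell control.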

How the results depend on the processing

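Counts here are members called out of 84, in either direction. The shares of all genes called in each alternative are not given beside them. At the 4-cell against the late 2-cell stage 82 or 83 were called in every alternative. Limma on FPKM called 1 for siRNA against control at the late 2-cell stage, 0 at the early 8-cell stage, 13 at the late 8-cell stage and 3 for the average of stages, 5 for I1394G and 10 for NaCr against siRNA, and 4 in the joint test. It turned Rpl4 at the early 8-cell stage to 0.21 (adjusted p = 0.718) and Rplp0 in the average to 0.0226 (adjusted p = 0.895). Both values used the FPKM column of control early 8-cell replicate 2. There Rpl4 read 914 FPKM against 1690 in replicate 1, and Rplp0 1583 against 2610. Neither gene turned direction with that column left out. The counts of members called by limma changed too when it was left out. Without the FPKM column that did not follow its counts these were 1, 0, 21, 3, 10, 14 and 7, with 3 for late against early 8-cell controls and 0 for the late minus early 8-cell effect. Total counts as the scale gave 0 at the early 8-cell stage, 20 at the late 8-cell stage, 3 for the average, 8 for I1394G and 12 for NaCr against siRNA, 8 in the joint test and 2 for the late minus early effect. DESeq2 gave 1 at the late 2-cell and 7 at the early 8-cell stage, and its size factors in edgeR 17 in the joint test and 1 for the late minus early effect. Without the low-count filter there were 39 for the average, 1 each for I1394G and NaCr against control, 65 in the joint test and 17 for the late minus early effect. With the compared libraries alone there were 5 at the late 2-cell stage, 5 at the early 8-cell stage, 13 for I1394G and 26 for NaCr against siRNA, 17 and 11 for them against control, 32 for late against early 8-cell controls, 12 in the joint test and 0 for the late minus early effect. Leaving out 1 library gave 0 to 2 at the 4-cell stage, 0 at the late 2-cell and early 8-cell stages, 34 to 78 at the late 8-cell stage, 16 to 60 for the average, 6 to 69 for I1394G and 23 to 76 for NaCr against siRNA, 0 for both against control, 82 to 83 for 4-cell against late 2-cell controls, 0 to 2 for early 8-cell against 4-cell and 1 to 4 for late against early 8-cell controls, 8 to 69 in the joint test and 0 to 56 for the late minus early effect. The replicate block gave 58 at the late 8-cell stage, 47 for I1394G and 59 for NaCr against siRNA, and changed no count by more than 1.5 times. Whether replicate numbers paired the libraries is not known, so neither fit can be preferred on that ground. As a share of summed FPKM the members held 14.97% with I1394G, 15.1% with NaCr, 11.4% with siRNA alone and 14.6% in controls at the late 8-cell stage, 16.6% and 16.3% in siRNA and control early 8-cell, 16.4% and 15.9% in siRNA and control 4-cell, and 3.42% and 2.74% in siRNA and control late 2-cell libraries. The 16.3% is the mean of 16.9% in replicate 1 and 15.8% in replicate 2, whose FPKM column did not follow its counts. Without the 8 duplicates the mean share of counts was 6.54% with I1394G and 6.32% in controls at the late 8-cell stage, 6.89% in early 8-cell controls, and 0.934% and 0.747% in siRNA and control late 2-cell libraries. Left-out libraries gave the shares of counts of single libraries: 6.75% to 6.86% with I1394G, 6.69% to 7.23% with NaCr, 3.72% to 6.15% with siRNA alone and 6.55% to 6.57% in controls at the late 8-cell stage, 6.88% to 7.37% and 6.9997% to 7.21% in siRNA and control early 8-cell, 6.72% to 7.46% and 5.84% to 7.34% in siRNA and control 4-cell, and 0.965% to 1.09% and 0.814% to 0.862% in siRNA and control late 2-cell libraries. The cause of these changes was not tested. An alternative total without mitochondrial genes was not run, since no such gene was in the count table used here. With 13 to 128 counts of Rpl3l in siRNA and 11 or 12 in control late 8-cell libraries, counting error limits that gene.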
